A study of Mus musculus with 2 samples.

Results

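The subunits of 2 families of adhesion proteins, the integrins and the laminins, were examined in the fetal mouse mandible with and without skeletal muscle. The members were the genes whose symbol names an integrin alpha or beta chain or a laminin alpha, beta or gamma chain and that had a probe set annotated to that gene alone. This gave 36 of the 19938 genes in the data, 26 integrin and 10 laminin subunits, read by 37 probe sets. Itga2b, whose symbol carries a letter after its number, was counted as an integrin subunit, and genes of integrin-binding or integrin-like proteins were not.

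Each genotype was represented by 1 Affymetrix array. The wild-type RNA came from the mandible of BALB/c fetuses at E18.5 (embryonic day), and the double-knockout RNA from the mandible of Myf5-/-:MyoD-/- fetuses of the same background and age. Myf5 and MyoD set progenitor cells on the path to skeletal muscle, and the series asks what muscle contributes to the development of the jaw. The sources used here do not state the number of fetuses per sample. With 1 array per genotype there is no replicate error and no test, and every difference below compares these 2 arrays.

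Integrins are receptors made of 1 alpha and 1 beta chain that span the cell membrane and tie the matrix outside the cell to the cytoskeleton inside. Laminins are cross-shaped proteins of 1 alpha, 1 beta and 1 gamma chain that build the basement membrane, the thin matrix sheet around muscle fibres and under epithelium and endothelium. In skeletal muscle the integrin chain Itga7, paired with Itgb1, binds laminins that carry the alpha chain Lama2, and loss of either gene causes muscular dystrophy. In epithelium Itga6 and Itgb4 form the hemidesmosome receptor, which binds laminins that carry Lama3 and Lamb3.

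Promoter sequences are shown for the muscle laminin chains and for an epithelial subunit, because the targeted factors, Myf5 and MyoD, bind DNA at E-boxes. Sequences came from the RefSeq promoter table (build GRCm38.p6), and windows of members on an excluded chromosome were dropped. Windows were then held by 23 of the 36 members, with 26 start sites. The other members either had no match in that table or were dropped, and how many fell under each was not counted. A member without a window here may thus still be in that table. Itga7 was not matched. The E-box pattern CANNTG, which reads the same on both strands, was searched in the 250 bases before each start, and its matches are in capitals below. The windows are Lama2 at chr10:27616943-27617192 (minus strand), Lamb2 at chr9:108479612-108479861 (plus strand) and Itga2 at chr13:114932101-114932350 (minus strand), each written 5′ to 3′ along its gene.
Lama2: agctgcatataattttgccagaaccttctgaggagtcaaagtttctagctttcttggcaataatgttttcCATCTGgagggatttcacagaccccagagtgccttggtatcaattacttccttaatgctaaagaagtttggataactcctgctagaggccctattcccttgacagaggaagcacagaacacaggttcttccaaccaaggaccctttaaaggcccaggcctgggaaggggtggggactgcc
Lamb2: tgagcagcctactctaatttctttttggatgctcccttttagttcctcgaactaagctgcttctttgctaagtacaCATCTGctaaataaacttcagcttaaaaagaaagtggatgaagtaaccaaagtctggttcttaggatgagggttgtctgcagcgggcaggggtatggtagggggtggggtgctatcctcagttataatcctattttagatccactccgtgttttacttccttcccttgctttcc
Itga2: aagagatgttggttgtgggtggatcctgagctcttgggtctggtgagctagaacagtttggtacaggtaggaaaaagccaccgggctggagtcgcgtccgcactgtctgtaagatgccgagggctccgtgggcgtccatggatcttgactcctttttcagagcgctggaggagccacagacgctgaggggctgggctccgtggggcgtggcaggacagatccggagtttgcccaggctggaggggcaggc

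Lama2 and Lamb2 each held 1 match, CATCTG in both, beginning 180 and 174 bases before the start, and Itga2 held 0. Itga2 was shown as the epithelial subunit of highest difference with a single start among these windows. It was the only epithelial subunit among them without a match: Itga3, Itgb6, Lama5 and Lamb3 held 1 to 3 in each window. The pattern is common: 66.2% of 32841 RefSeq promoter windows of this length held it, as did 21 of the 26 windows of the members. The 32841 windows were not filtered by chromosome. These matches describe the letters of the windows and were not tested as binding sites.

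The arrays were read on the deposited log2 scale. Values under a floor, the median of the annotated probe sets (6.18 on the wild-type and 6.19 on the double-knockout array), were raised to it, and a gene exceeding the floor on 1 array or both was taken as measured. A difference is double knockout minus wild type, and it is a bound, written "at least", when 1 side lies at the floor. Of the targeted genes, Myf5 had deposited values of 6.31 and 4.95, and Myod1 7.14 and 6.49, in that order of arrays. Myod1 thus stayed above the floor in the double knockout, with 63.4% of the signal, and this probe set does not show its absence; where it lies relative to the deletion is not stated in the sources used here. All 7 skeletal muscle markers, among them the actin Acta1 and the myosin Myh8, were lower. Desmin (Des) differed by -4.96, and the other 6 were below the floor in the double knockout, with bounds from -6.01 to -4.65. In bulk tissue fewer cells of a type and less RNA per cell cannot be told apart, which holds for every difference that follows. Markers of skeletal tissue were read as well: all 5 osteoclast markers and 3 of 4 cartilage markers were measured, and the cartilage gene Matn1 was below the floor on both arrays. These markers are not particular to the jaw, so they do not check the mandible label.

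Of the 36 subunits, 30 were measured. On both arrays 26 were above the floor, 4 were above it on 1 array, and 6 lay below it on both. Those 6 were the platelet integrin chain Itga2b and the leukocyte chains Itgad, Itgae, Itgal, Itgax and Itgb7. Of the 30, 19 were higher and 11 lower in the double knockout, with a median difference of 0.21. The same median over all 10393 measured genes was 0.10, and 67.0% of them were higher. Relative to that median, 17 subunits lay above and 13 below.

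**Figure D1:**
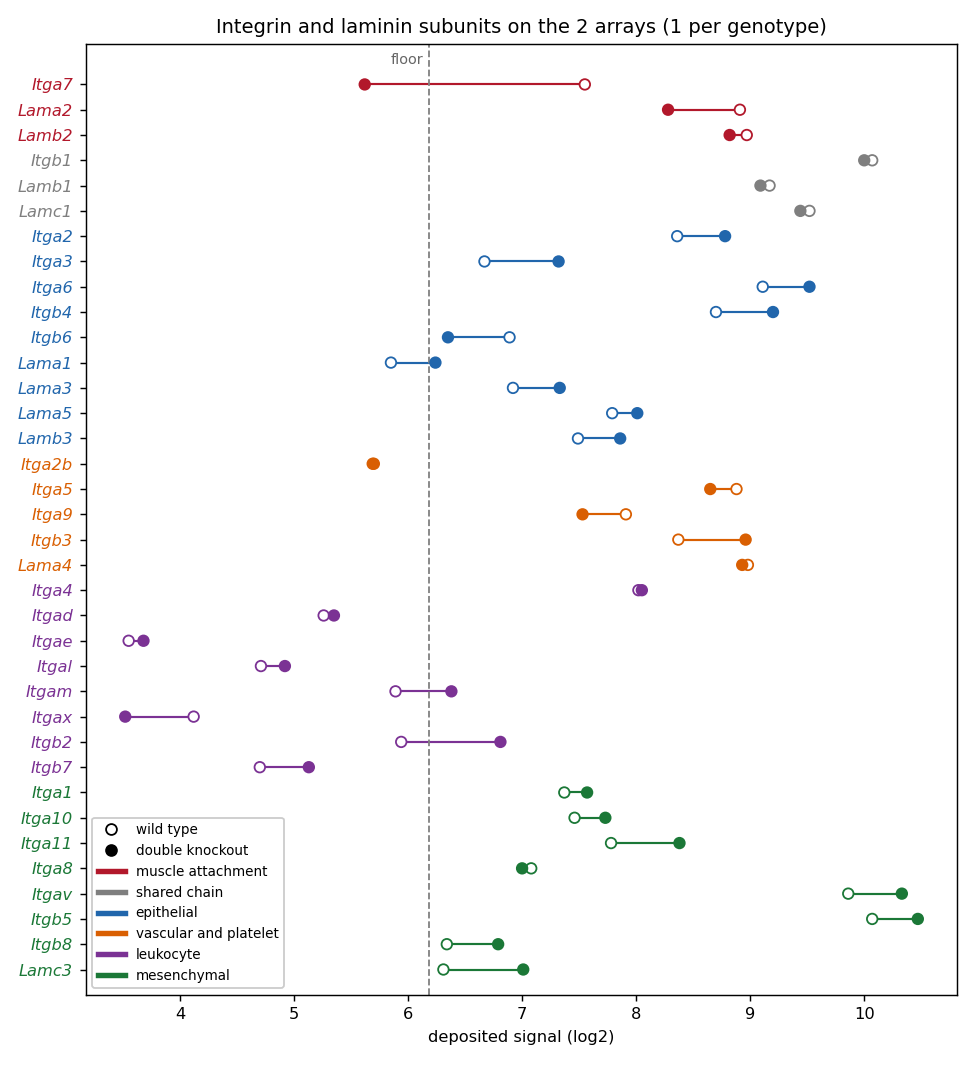
Deposited log2 signal of the 36 integrin and laminin subunits (rows) on the wild-type array (open circle) and the double-knockout array (filled circle), coloured by the group each subunit was put in; the dashed line is the floor. Itga7 alone crosses the floor from right to left, and most epithelial and mesenchymal subunits have the filled circle to the right.

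Few subunits differed widely. Only 1 of the 30, Itga7, was at least 2-fold lower, or 3.33% against 2.73% of all measured genes, and 0 were at least 2-fold higher, against 0.51%. At 1.5-fold, 2 were lower, Itga7 and Lama2, a share of 6.67% that is near the 5.11% of all measured genes. Those at least 1.5-fold higher were 5 of 30, or 16.7% against 3.07% of all measured genes. They were Itga3, Itga11, Itgb2, Itgb3 and Lamc3. This count depends on how the arrays are scaled: with the all-gene median difference set to 0, 1 subunit (Lamc3) was at least 1.5-fold higher and 3 were lower. These are 3.33% and 10% of the subunits, against 1.80% and 6.31% of all measured genes. After quantile normalisation 3 were higher and 2 lower, or 10% and 6.67%, against 2.58% and 5.37%.

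A spread could be measured only within genes that have several probe sets. Their 2 brightest probe sets disagreed with an SD of 0.23 over 532 genes, a figure that holds no variation between animals or hybridisations. Differences beyond this SD were found in 14 subunits that were higher and 5 that were lower (46.7% and 16.7% of 30), against 26.5% and 13.1% of all measured genes. The other 11 subunits lay within it. Only Itgad had more than 1 probe set, so a spread of their own could not be measured for the others.

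**Figure D2:**
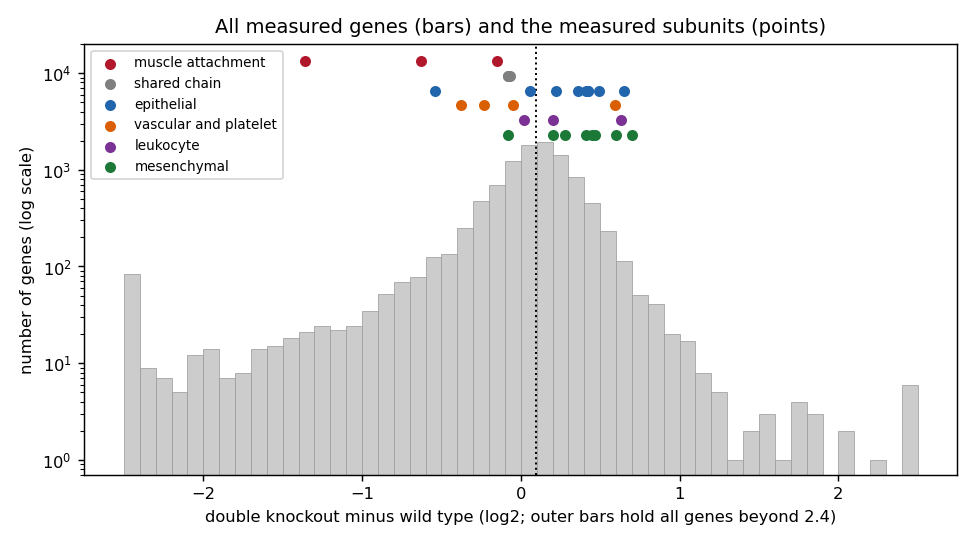
Number of measured genes (bars, log scale) by their log2 difference (double knockout minus wild type), with the 30 measured subunits as points in 1 row per group; the height of the points has no scale, and the dotted line is the median of all genes, 0.10. The muscle attachment points lie left of that line and all epithelial points but Itgb6 and Lama1 lie right of it.

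The subunits that attach muscle fibres were the group with the lowest median. Itga7, the alpha chain of the main laminin receptor of muscle, gave 7.55 and 5.62, wild type first, as in all pairs of values here. The second value is below the floor, so Itga7 was at least 2.57-fold lower, with at most 38.9% of the wild-type signal left. Only 200 of the 10393 measured genes had a lower difference. The difference of the deposited values themselves was -1.93.

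Lama2, the alpha chain of the laminins around muscle fibres, gave 8.91 and 8.28. It was 1.55-fold lower, with 64.6% of the signal left, and stood well above the floor on both arrays, unlike Itga7. The difference of -0.63 is beyond the probe set SD, and 497 measured genes had a lower one. Lamb2, the beta chain enriched at the neuromuscular synapse and also made by vessels and kidney, gave 8.97 and 8.82, a difference of -0.15 that is within that SD. All 3 were thus lower, over a range from -0.15 to -1.36 and with a median of -0.63. They were lower under both other scalings too, with medians of -0.73 and -0.67. Beside them, the summed linear signal of the 7 muscle markers in the double knockout, with values under the floor raised to it, was at most 0.0235 times that of the wild type. Lama2 and Lamb2 kept clear signal on the array with almost no muscle marker signal, and what part other cells had in it was not tested.

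Markers of tendon, the tissue in which muscle ends, were lower as well. Tenomodulin (Tnmd), Thbs4 and Kera, 3 of the 4 measured tendon markers, were at least 2-fold lower, against 2.73% of all measured genes. Mkx differed by 0.10. Scx was below the floor on both arrays. The summed linear signal of the tendon markers (floored) was 1970 on the wild-type and 702 on the double-knockout array. Their part in the Lama2 difference was not tested.

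The chains that pair with most others hardly differed. Itgb1, the beta chain shared by Itga7 and most other laminin and collagen receptors, gave 10.07 in the wild type and differed by -0.07. Lamb1 gave 9.17 and 9.09, and Lamc1, the gamma chain of most laminins, 9.52 and 9.44. The differences of these 3 genes ran only from -0.08 to -0.07, all within the probe set SD. Relative to its partner Itgb1, Itga7 was at least 1.29 log2 units lower, and Lama2 was 0.58 lower relative to Lama4, the alpha chain of vessel laminins.

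Epithelial subunits were higher as a group. Of 9 measured, 8 were higher and 1 was lower, and the median was 0.41. Of all measured genes 67.0% were higher, and relative to the all-gene median 7 of the 9 lay above. Itga3, the alpha chain of an epithelial laminin receptor, gave 6.67 and 7.32 and was 1.56-fold higher. Both chains of the hemidesmosome receptor were higher by a similar amount. Itgb4 gave 8.70 and 9.20 (by 0.49 log2 units), and Itga6, which endothelium also makes, 9.11 and 9.52 (1.34-fold). Their laminin ligand followed the same direction, with Lama3 at 6.92 and 7.33 (1.33-fold) and Lamb3 at 7.49 and 7.86 (1.28-fold). These 5 differences are all beyond the probe set SD.

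The collagen receptor chain Itga2 gave 8.36 and 8.78 and was 1.34-fold higher. Lama5, the alpha chain of mature epithelial and vessel basement membranes, gave 7.79 and 8.01, a difference of 0.22 that is within the SD. Lama1, the alpha chain of early embryonic basement membranes, was below the floor in the wild type (5.85) and just above it in the double knockout (6.24), at least 0.06 higher. That bound was -0.04, which gives no direction, with the all-gene median difference set to 0. Itgb6 ran against the group. This chain forms a receptor that activates TGF-beta and is made by the enamel organ of the tooth, and it gave 6.89 and 6.35, or 1.45-fold lower. Relative to Itgb4 it was 1.03 log2 units lower.

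Epithelial markers moved with these subunits. All 8 exceeded the floor on each array and were higher in the double knockout. They ran from 0.11 for the basal keratin Krt5, beside the all-gene median of 0.10, to 1.30 for the simple-epithelium keratin Krt18. Their summed linear signal was 1.33 times that of the wild type. The basal keratins Krt14 and Krt15 were 0.35 and 0.22 higher, the latter within the probe set SD, and Krt8 and Epcam 0.93 and 0.87. The 5 salivary gland markers were 1.70 to 4.12 higher, with a summed signal 10.2 times that of the wild type. The share of gland or other epithelium in either sample was not measured, and its part in the subunit differences was not tested.

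Vascular and platelet subunits were split. Lama4, which vessels and muscle both make, gave 8.98 and 8.93, a difference of -0.05. Itga5, a fibronectin receptor chain of vessels and mesenchyme, gave 8.88 and 8.65 and was 1.17-fold lower. Itga9, a chain needed for lymphatic valves and also found in muscle and epithelium, gave 7.91 and 7.53 and was 1.30-fold lower. The 3 lower chains had differences from -0.38 to -0.05, and 1 chain went the other way.

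Itgb3 is the beta chain of the platelet receptor and of a separate receptor that osteoclasts use to hold on to bone. It gave 8.37 and 8.96 and was 1.51-fold higher. Its platelet partner Itga2b was below the floor on both arrays (5.69 and 5.70). Its other partner, Itgav, gave 9.86 and 10.33 and was 1.39-fold higher. All 5 osteoclast markers were higher, by 0.43 for cathepsin K (Ctsk) up to 1.08 for the proton pump subunit Atp6v0d2, and their summed linear signal was 1.54 times that of the wild type. The platelet marker Pf4 was lower (7.23 and 6.67), and Gp9 and Ppbp were below the floor on both arrays. Of 7 endothelial markers 4 were higher and 3 lower, with a median of 0.05 that turned to -0.05 with the all-gene median difference set to 0. The part of osteoclasts in the Itgb3 difference was not tested.

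Leukocyte subunits gave little signal. Of 8, 3 were measured. Itgb2, the beta chain of the leukocyte-specific integrins, was below the floor in the wild type (5.94) and gave 6.81 in the double knockout, at least 1.55-fold higher. Its partner Itgam, a chain of macrophages and granulocytes, gave 5.89 and 6.38, at least 1.15-fold higher, a bound that is within the probe set SD. Itga4, which pairs with Itgb1 or Itgb7 and is also made outside the blood, gave 8.02 and 8.05, and its direction turned under both other scalings. The 5 chains under the floor had deposited values from 3.52 (Itgax, double knockout) to 5.35 (Itgad, double knockout). Itgad was the subunit with 2 probe sets, and its second gave 4.47 and 4.52.

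Markers of leukocytes and macrophages were mixed beside these values. Of 7 measured, 4 were higher and 3 lower. Cd68, which osteoclasts share, was highest at 0.87, and the complement gene C1qc was lowest at -0.64. The pan-leukocyte gene Ptprc was below the floor on both arrays. The summed linear signal of this list was 1.37 times that of the wild type, and its part in the Itgb2 difference was not tested.

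Mesenchymal and other subunits were higher in 7 of 8 genes, with a median of 0.43, while 67.0% of all measured genes were higher. Relative to the all-gene median, 7 lay above. Lamc3, a less widespread laminin gamma chain, gave 6.31 and 7.01 and was 1.62-fold higher, the highest difference among subunits above the floor on both arrays. Its wild-type value lies just above the floor. Only 170 measured genes had a higher difference. Itga11, the collagen receptor chain of fibroblasts that is prominent in the periodontal ligament, gave 7.78 and 8.38 and was 1.52-fold higher. Itga10, the collagen receptor chain of cartilage, gave 7.46 and 7.73 and was 1.21-fold higher.

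The remaining members of this group differed by less than 1.5-fold. Itgb5, a partner of Itgav, gave 10.07 and 10.47 (1.32-fold). Itgb8, another partner of Itgav, gave 6.34 and 6.79 (1.36-fold). Itga8, the nephronectin receptor chain, gave 7.08 and 7.0, a difference of -0.08. Itga1, a collagen receptor chain of mesenchyme and vessel walls, gave 7.37 and 7.57, a difference of 0.20 within the probe set SD. Among the 3 cartilage markers measured, Sox9 and Col2a1 were 0.76 and 0.49 higher and Acan was 0.32 lower.

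**Figure D3:**
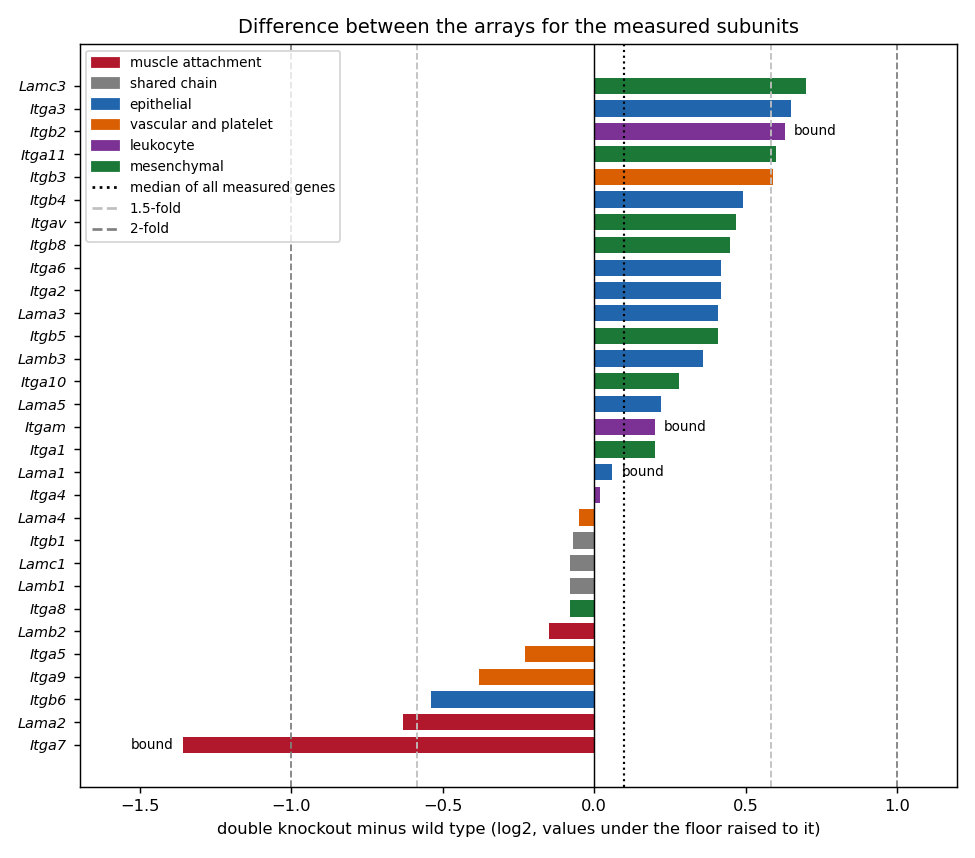
Difference of the 30 measured subunits, double knockout minus wild type (log2, values under the floor raised to it), in order, with bars coloured by group; "bound" marks a difference with 1 side at the floor, and dashed lines mark 1.5-fold and 2-fold. Itga7 is the lowest at -1.36 and the only one beyond 2-fold, and Lamc3, at 0.70, is the highest that is not a bound. Itgb2, at least 0.63 here, has a deposited difference of 0.88.

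The design of the comparison sets the muscle attachment subunits against the others. The epithelial median lay 1.04 log2 units above the muscle attachment median, and 8 of 9 epithelial subunits had a higher difference than all 3 muscle attachment subunits. Itgb6 was the exception. Of all measured genes, 82.7% also lay above these 3, so counts of this kind are near the background. The mesenchymal median was 1.06 above, and all 8 mesenchymal subunits had a higher difference than the 3 muscle ones, as did all 3 measured leukocyte subunits. Vascular and platelet subunits overlapped with them: Itga5 and Itga9 had lower differences than Lamb2. Groups of 3 to 9 genes on 2 arrays allow no test of these gaps. Several subunits serve more than 1 of these tissues, and each was put in only 1 group.

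By chain type, integrin beta chains had a median of 0.45 over 7 genes and integrin alpha chains of 0.20 over 13. Laminins as a family had 5 higher and 5 lower and a median of 0.00, against 0.10 over all measured genes. Relative to the all-gene median, 4 laminins lay above and 6 below. Within each laminin chain type the members differed in direction: among alpha chains Lama2 was 1.04 lower relative to Lama3, among beta chains Lamb3 was 0.44 higher relative to Lamb1, and among gamma chains Lamc3 was 0.78 higher relative to Lamc1.

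Inside the cell, integrins are tied to actin and to signalling enzymes by linker proteins. Of 19 measured linkers, 7 were higher and 12 lower, and the median was -0.12. Relative to the all-gene median, 6 lay above and 13 below. At least 2-fold lower were 2 of the 19, against 2.73% of all measured genes. Itgb1bp2 (melusin), a muscle protein that binds the tail of the beta chain Itgb1, gave 9.12 and 4.43 and was at least 7.62-fold lower. Filamin C (Flnc), the muscle filamin, gave 10.56 and 7.77 and was 6.92-fold lower. Its relative filamin A (Flna) gave 10.40 and 10.72 and was 1.25-fold higher. The kindlins also differed in direction. The epithelial Fermt1 gave 6.28, just above the floor, and 6.96 (0.68 higher). Fermt3 gave 6.38 and 6.71 (1.26-fold higher), and the widespread Fermt2 9.43 and 9.04 (1.31-fold lower).

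Further linkers differed by less than 1.5-fold. Zyxin (Zyx), found at actin anchors under tension, was 1.43-fold lower, integrin-linked kinase (Ilk) 1.30-fold lower and its partner Parvb 1.26-fold lower. The talins Tln1 and Tln2 and vinculin (Vcl), the core of the link to actin, had differences of 0.14, -0.12 and -0.15, all within the probe set SD. Parvg and Lims2 were below the floor on both arrays.

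Partners of the laminins in the basement membrane had a median of -0.07 over 11 measured genes, with 4 higher and 7 lower. Relative to the all-gene median, 2 lay above and 9 below. At least 2-fold apart were 0, against 2.73% lower and 0.51% higher among all measured genes. Col15a1, a collagen of muscle and vessel basement membranes, gave 8.37 and 7.74 and was 1.55-fold lower, close to Lama2. Dystroglycan (Dag1), the other main laminin receptor of muscle, gave 10.22 and 9.69 and was 1.44-fold lower. Agrin (Agrn) was 1.24-fold higher. The general components, the collagens Col4a1 and Col4a2, the nidogens Nid1 and Nid2 and perlecan (Hspg2), differed by -0.15 to 0.16. The 5 hemidesmosome partners had a median of -0.08, with 2 higher and 3 lower, while both receptor chains were higher. Of these partners, 1 lay above the all-gene median and 4 below it. The transmembrane collagen Col17a1 was 1.26-fold higher, and the linker plectin (Plec), which muscle also uses, was 1.45-fold lower. Dystonin (Dst) differed by -0.28, Bcam by -0.08 and Cd151 by 0.03.

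**Figure D4:**
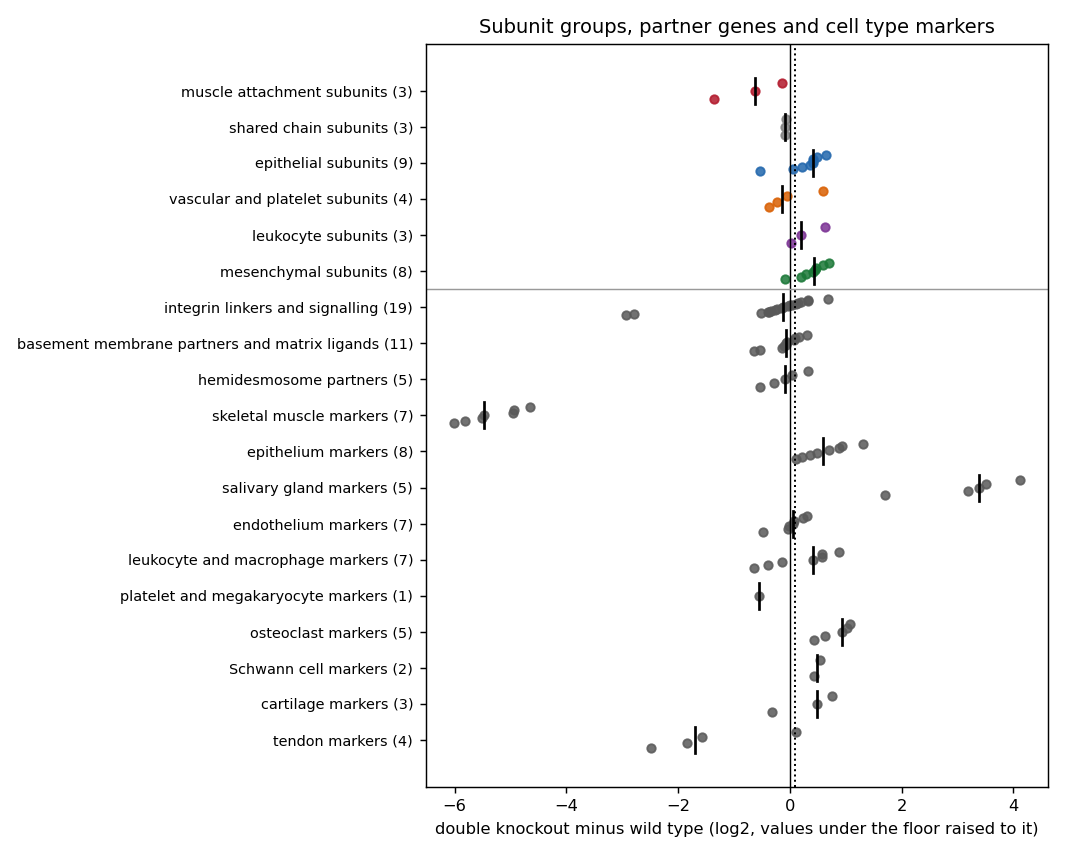
Difference, double knockout minus wild type (log2, values under the floor raised to it), of the measured genes of each subunit group (above the line), partner list and cell type marker list (below it), with the number of genes in brackets; black ticks are medians and the dotted line is the median of all genes. Muscle markers, 6 of them bounds, lie at or below -4.65, the muscle attachment subunits between -1.36 and -0.15, and the epithelial subunits and markers mostly above 0.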

How the data were processed

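Total RNA (6 µg per sample) was labelled with biotin and hybridised to 1 Affymetrix array per genotype, per the labels' protocols. The deposited table gives a log2 signal for 35557 probe sets; the base was inferred from the range of the values (1.42 to 13.35). The submitters' processing notes name MAS5; the version, background correction, normalization and logarithm step are not given in the sources used here. The arrays were compared as deposited, since the 2% trimmed means of the linear values had a ratio of 1.019, within the 5% allowed. If the authors had equalised the arrays, that check would pass in any case. The medians were 5.48 and 5.45.

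Genes were named by GEO's platform annotation (21789 probe sets with 1 gene, 1621 with several, 12147 with none); all 36 members were in the RefSeq table of GRCm38.p6, with 0 changed symbols. Where a gene had several probe sets, the one with the highest mean linear signal stood for it. All measured members are named, and of other lists the members with the largest differences or needed beside a result. The linkers Tln1, Tln2, Vcl, Flna, Fermt2, Fermt3, Ilk, Parvb, Parvg and Lims2 and the general basement membrane components were added after values were seen. The members, groups and lists were chosen with earlier results of these data known. Alternatives were other scalings, floors at the 25th and 75th percentile, no floor, and the median over probe sets. Python 3.11.15, NumPy 2.4.6 and pandas 2.3.3 were used, and the gene-level step was tested on simulated data. With 2 arrays, precision is limited by their number.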

Additional observations from a re-analysis of the deposited data

Results flagged for a closer look

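Signal was also found in probe sets outside the comparison. The annotation gives 3 probe sets to both Itgam and the ribosomal protein gene Rpl35, and these entered no comparison. Their deposited values were higher on the double-knockout array than on the wild-type array by 0.20, 0.19 and 0.20 log2 units, from wild-type values of 10.97 to 11.23. Which of the 2 genes they read was not tested. The probe set of Itgam alone had its wild-type value below the floor.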

How the results depend on the processing

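No replicate could be left out, and no paired analysis was possible because each genotype has 1 array and the labels give no replicate numbers. Setting the median difference to 0 left 1 subunit at least 1.5-fold higher in place of 5, and quantile normalisation left 3. The floor at the 75th percentile left 18 subunits measured, with 0 lower by 2-fold, 1 lower by 1.5-fold and 2 higher by 1.5-fold. Under that floor the muscle attachment median was -0.39 over 2 genes, since Itga7 was no longer measured, and the epithelial median lay 0.81 above it. The other medians of subunit groups moved by less than the probe set SD under every alternative run. Lower or absent floors changed the 4 bounds most: Itga7 to -1.93, Itgb2 to 0.88, Itgam to 0.49 and Lama1 to 0.39. Under the 75th percentile floor Itga9 was -0.13 and Lamb3 0.12. The median over probe sets moved none of the 30 differences. Of the 13 medians of partner and marker lists, which were added after seeing the data, 2 moved beyond that SD with the lower floor and without a floor, 3 of the 11 left with the higher floor and 0 with the other alternatives. Itgb6, Itgb8 and Lamc3 lie near the floor on 1 array, and the deposited values carry no detection calls.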
